A study of Mus musculus with 2 samples.

Results

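The replication-dependent histone genes encode the bulk of the H1, H2A, H2B, H3 and H4 proteins that package newly copied DNA. They were taken as every probe whose name begins with Hist1h, Hist2h, Hist3h or Hist4h, which gave 67 of the 26127 genes quantified in mouse embryonic stem (ES) cells. The 67 comprised 6 H1, 19 H2A, 18 H2B, 11 H3 and 13 H4 genes, of which 55 belong to the Hist1 cluster, 9 to Hist2, 2 to Hist3 and 1 to Hist4.

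The study compared WT ES cells of strain 129S1/SvImJ, with unmodified H3f3a and H3f3b, with targeted H3.3 G34R ES cells of the same strain. The G34R cells are heterozygous: Cre-mediated replacement left 1 H3f3a allele expressing the glycine-to-arginine coding sequence from the endogenous promoter, while the other H3f3a allele and both H3f3b alleles stayed WT. Both lines were kept below 20 passages in serum with leukemia inhibitory factor and were not treated otherwise. Each line gave 1 stranded 50 bp total RNA library, so the genotype, the targeted clone, the culture and the library cannot be told apart. No value has a replicate, and no p-value is given.

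Replication-dependent histone mRNAs are made mainly in S phase, when DNA is copied. Unlike other mRNAs they end in a conserved stem-loop in place of a poly(A) tail. The stem-loop is bound by SLBP, and the NPAT protein at the histone locus body drives transcription of the clusters. H3.3, the histone altered in the G34R cells, is by contrast a replication-independent variant from H3f3a and H3f3b, with introns and polyadenylated mRNA. A total RNA library keeps transcripts without a tail, which poly(A) selection would largely lose.

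The stem-loop marks these mRNAs as a class, and its letters separated the H4 genes from the other types. It was searched in the mm9 genome as a 6-base stem beginning with GG, a 4-base loop beginning with TT and the exact reverse complement of the stem, within 150 bases after the stop codon. It was present in 61 of the 67 genes, 21 to 58 bases after the stop (median 30), in 6 forms. The example of each form below is shown with 5 flanking bases on either side, on the coding strand, 5′ to 3′. Capitals mark the 16 bases of the stem-loop and the coordinates are those of the capitals in mm9.
Hist1h3i, chr13:21874789-21874804, minus strand: caaaaGGCTCTTTTCAGAGCCccctc
Hist1h2bb, chr13:23839072-23839087, plus strand: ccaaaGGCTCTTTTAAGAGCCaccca
Hist2h2ac, chr3:96024341-96024356, minus strand: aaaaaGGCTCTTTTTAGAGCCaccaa
Hist1h4h, chr13:23623327-23623342, plus strand: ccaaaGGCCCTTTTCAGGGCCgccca
Hist1h4j, chr13:21827306-21827321, plus strand: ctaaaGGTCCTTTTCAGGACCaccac
Hist2h4, chr3:96066862-96066877, minus strand: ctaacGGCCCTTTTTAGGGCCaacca

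The form of Hist1h3i was the most common, in 39 genes. The form of Hist1h2bb was in 9 genes and that of Hist2h2ac in 1, with the same stem and another loop. All of these were H1, H2A, H2B and H3 genes. The form of Hist1h4h was found in 8 genes, that of Hist1h4j in 2 and that of Hist2h4 in 2, all of them H4. No such letters were found in this window for Hist2h2be, Hist2h2bb, Hist1h2an, Hist1h3g, Hist1h4a and Hist1h2al. The gene models did not always reach the element: it lay in a model exon in 43 genes, past the model's end in 15 and between model exons in 3. In 14 genes the model ran more than 300 bases past the stem-loop. The median level of these 14 was 62.38 RPKM in WT cells and 65.68 in G34R cells, against 181.72 and 189.04 for the 47 with models ending within 300 bases, and RPKM divides by model length.

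Promoter letters differed between the types as well. RefSeq (GRCm38.p6) gave a window from 250 bases before to 50 bases after the start for 61 of the 67 genes. The letters TATAAA, on either strand, were in 57.4% of these 61 windows against 14.2% of 27025 windows of all genes. CCAAT was in 85.2% against 37.9%: all H1, H2A, H2B and H3 windows held it, and 3 of 12 H4 windows did. The octamer ATTTGCAT, the letters bound by POU2F1 (Oct-1), was in 21.3% against 1.8%, in 7 of 18 H2A windows, 6 of 16 H2B windows and no H1, H3 or H4 window. Many H2A and H2B genes lie head to head, so 1 site can fall in the windows of both genes of a pair. A match is a run of letters and not a measured binding site.

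These genes were among the most abundant in both libraries. Levels are given in RPKM, a read density scaled for transcript length and for the size of the library. The library totals estimated from the RPKM steps of short genes were 87.9 M reads for WT and 72.5 M for G34R cells, which made 1 read per kilobase worth 0.0114 and 0.0138 RPKM. An estimated 69 to 35720 reads per gene (median 7045) lay behind the WT values and 68 to 36307 (median 6682) behind the G34R values. Of the 50 highest probes, the 67 genes supplied 13 in the WT library and 22 in the G34R library. Hist1h4h, an H4 gene, ranked 7 in WT and 2 in G34R cells.

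**Figure D1:**
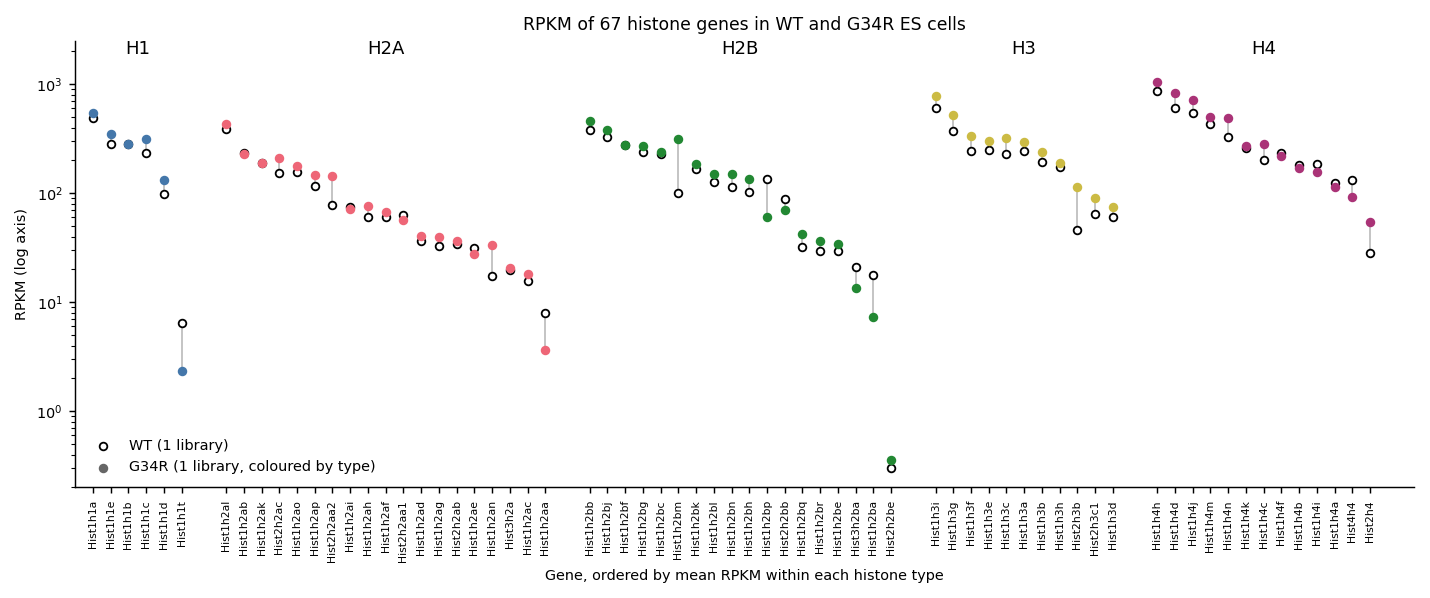
RPKM (log axis) of each of the 67 histone genes in the WT library (open points) and the G34R library (filled points), ordered by mean RPKM within each type. H4 genes reach the highest level (Hist1h4h, 864.82 and 1038.77 RPKM), Hist2h2be is lowest in both libraries, and the grey lines between the points of a gene are short for most genes.

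Most of the 67 genes were moderately higher in G34R cells. In G34R cells 51 were higher, 15 were lower and Hist1h2ak was the same in both libraries, where 44.8% of the 12883 probes with a mean of at least 0.25 RPKM were higher. All 67 passed that filter. Their median log2 (G34R/WT RPKM) was 0.23, with the middle 50% between 0.01 and 0.40, against a median of -0.06 over the 12883 probes. Summed over the 67 genes, RPKM was 12171.4 in WT and 14659.49 in G34R cells, a log2 ratio of 0.27, or 7.78% and 9.67% of all RPKM. Their share of the reads was far smaller, an estimated 0.75% in WT and 0.91% in G34R cells, since RPKM divides by their short model lengths. Scaling both libraries to the same RPKM sum added 0.05 to each log2 ratio and gave 53 genes higher and 14 lower.

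The counting error behind these ratios was small. A 95% exact binomial (Clopper-Pearson) interval from the estimated reads lay above 0 for 46 genes, below 0 for 14 and across 0 for 7. With a median of 7045 estimated reads per gene in WT and 6682 in G34R cells, even a small difference can place an interval off 0. The shares of all probes with intervals above or below 0 were not taken, so these counts are not a result about the histone genes. The interval covers counting only and says nothing about how much 2 cultures of the same line would vary. It also takes the reads placed on a gene as that gene's own, so it leaves out error from reads shared between copies. The identical copies Hist2h2aa1 (interval -0.24 to -0.08) and Hist2h2aa2 (0.81 to 0.92) were thus counted on opposite sides of 0.

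The ratios differed between genes with more and with less unique sequence, though not alike in every type. The part of shared reads in this was not tested. Histone genes repeat each other's coding sequence, and 31 of the 67 had fewer than 50% of their 50-base windows, the length of 1 read, found once in the mm9 genome. Reads from shared windows can be placed on another copy, since 1 primary alignment was kept per read. Among the 36 genes with at least 50% unique windows, 22 were higher and 13 lower in G34R cells, with a median log2 ratio of 0.15 and summed RPKM of 6278.06 and 7399.55 (log2 ratio 0.24). Among the 31 below 50%, 29 were higher and 2 lower, with a median of 0.28 and sums of 5893.34 and 7259.94 (log2 ratio 0.30). The median and the sum were therefore higher in G34R cells in both classes, and lower single genes were mostly those with more unique sequence. Genes of the upper class can still have up to 50% shared windows, so the split does not isolate unique sequence. The classes also differ in type, since all 6 H1 genes are in the upper class. The log2 ratio of sums was smaller in the upper class for H2A and H4, close for H3 and larger for H2B (0.27 against 0.18). Among the 17 genes with at least 75% unique windows, 12 were higher and 5 lower, with a median of 0.14 (log2 ratio of sums 0.15). Some of the 17 have models that run far past the stem-loop, such as Hist1h1d (3050 bases) and Hist1h2ac (2010 bases), and others, such as Hist1h1b, do not. Part of the unique sequence in this class thus lies downstream of the histone stem-loop. The median unique share was 97.7% for H1, 57.0% for H4, 49.8% for H2B, 42.7% for H3 and 33.0% for H2A.

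**Figure D2:**
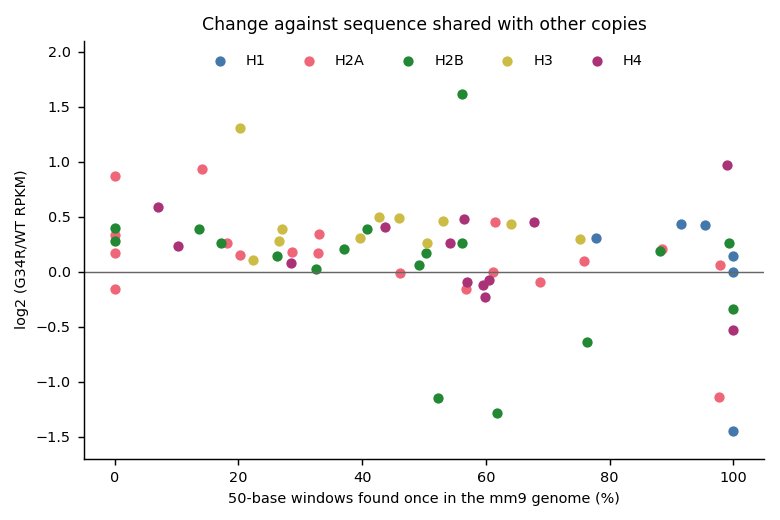
log2 (G34R/WT RPKM) of each histone gene against the percent of its 50-base windows found once in the mm9 genome, coloured by histone type. Most points left of 50% lie above 0 (29 of 31), while points at and right of 50% lie on both sides (22 higher, 13 lower, 1 at 0).

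The H1 genes, which encode the linker histone that binds DNA between nucleosomes, carried the most unique sequence. Hist1h1c measured 234.35 RPKM in WT and 316.68 in G34R cells, a log2 ratio of 0.43 (interval 0.41 to 0.46). Hist1h1e was 280.75 and 347.56 (0.31, interval 0.28 to 0.34). Hist1h1a, the highest of the type, was 493.15 and 542.22 (0.14, interval 0.11 to 0.16). These genes were higher in the G34R library by more than counting error. Hist1h1b was level at 283.36 and 284.17 RPKM (0.00, interval -0.03 to 0.04). Hist1h1t, the testis-specific H1, was far lower than the others and is described with the testis forms. Over all 6 genes the median log2 ratio was 0.22, with 5 higher and 1 lower, and the sum went from 1396.17 in WT to 1624.03 in G34R cells.

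H2A genes encode the partners of H2B in the nucleosome. Of the 19, 13 were higher, 5 lower and 1 equal, with a median log2 ratio of 0.17 and sums of 1764.92 and 2020.41 RPKM. Hist1h2ab (232.09 and 229.99 RPKM) and Hist1h2ak (188.09 in both) had intervals across 0, from -0.05 to 0.03 and from -0.05 to 0.05. Both were therefore not distinguishable from level at this depth. Hist2h2ac was 152.59 and 209.12 RPKM (0.45, interval 0.41 to 0.50). Hist1h2al had the highest level of the type, 384.81 and 435.2 RPKM (0.18, interval 0.14 to 0.21). RefSeq now lists Hist1h2al as a transcribed pseudogene and only 28.6% of its windows were unique, so its reads may belong to other H2A copies. With at least 50% unique windows, 4 of the 8 H2A genes were higher and 3 lower, with a median of 0.03.

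A few pairs of genes (3 in all) could not be separated by the mm9 sequence inside their models. Every 50-base window of each was also in its partner. Hist2h2aa1 was 63.01 RPKM in WT and 56.42 in G34R cells, while Hist2h2aa2 was 78.55 and 143.08. Their log2 ratios of -0.16 and 0.87 went opposite ways although no 50-base window inside the models tells the copies apart. Reads that reach past the model ends were not examined. Summed, the pair was 141.56 and 199.5 RPKM (log2 ratio 0.49), and the copies can be read only as a sum. Genes of all 3 pairs also shared windows with other histone genes, so the sums can hold reads from further copies. Of the windows of Hist1h2al, for example, 69.6% were shared with Hist2h2aa1. The H3 gene Hist2h3c1 has a model that overlaps that of Hist2h2aa1 on the same strand. The H2A genes Hist1h2ao and Hist1h2ap summed to 274.54 and 324.23 RPKM (0.24), and the H2B genes Hist1h2bq and Hist1h2br to 61.76 and 78.28 (0.34).

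H2B held the largest single increase of the 67 genes, and also genes more than 2-fold lower. Hist1h2bm was 101.14 RPKM in WT and 311.34 in G34R cells, 3.08-fold higher, with a log2 ratio of 1.62 (interval 1.57 to 1.67). Hist1h2bp was 134.25 and 60.4 RPKM, 2.22-fold lower (-1.15, interval -1.21 to -1.09). Both genes lie in the same part of the Hist1 cluster. Unique windows made up 56.2% of Hist1h2bm and 52.3% of Hist1h2bp, and 31.4% of the windows of Hist1h2bm were shared with Hist1h2bp. The most abundant H2B genes differed far less. Hist1h2bb was 380.16 and 454.27 RPKM (0.26, interval 0.22 to 0.29), Hist1h2bj 329.49 and 379.81 (0.21, interval 0.17 to 0.24), and Hist1h2bg 239.01 and 268.94 (0.17, interval 0.13 to 0.21). Hist1h2bf was level at 275.14 and 278.18 RPKM (0.02, interval -0.02 to 0.06). Of the 18 H2B genes 14 were higher and 4 lower, with a median of 0.20 and sums of 2414.95 and 2810.38 RPKM.

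H3 was the 1 type in which every gene was higher in G34R cells. The 11 log2 ratios ran from 0.11 to 1.31 with a median of 0.39, and the sum was 2479.07 RPKM in WT and 3258.29 in G34R cells (0.39). The median was similar in both classes of sequence, 0.37 for the 4 genes with at least 50% unique windows and 0.39 for the 7 others. No H3 gene had more than 75.2% unique windows. Hist1h3i was 601.1 and 785.5 RPKM (0.39, interval 0.36 to 0.41) and Hist1h3g 370.12 and 519.37 (0.49, interval 0.46 to 0.52). Hist1h3f was 246.03 and 332.53 RPKM (0.43, interval 0.41 to 0.46) and Hist1h3e 248.21 and 302.19 (0.28, interval 0.25 to 0.31). Hist2h3b had the largest ratio, at 46.09 and 114.55 RPKM, 2.49-fold higher (1.31, interval 1.24 to 1.39). Only 20.3% of its windows were unique and the other 79.7% were shared with Hist2h3c1, which was 64.33 and 90.93 RPKM.

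The H3 genes encode H3.1 or H3.2, which differ at amino acid 96. Codon 96, counted without the initiator methionine, was TGT (cysteine, H3.1) in Hist1h3a, Hist1h3g, Hist1h3h and Hist1h3i and AGC (serine, H3.2) in the other 7. The H3.1 genes summed to 1391.55 RPKM in WT and 1788.46 in G34R cells (log2 ratio 0.36), and the H3.2 genes to 1087.52 and 1469.83 (0.43). Both forms were thus higher in the G34R library. The replication-independent H3.3 genes were lower: H3f3a was 8.17 and 4.89 RPKM (-0.74) and H3f3b 68.84 and 58.76 (-0.23). H3f3a is the targeted gene, so a replaced exon 2 can change how its reads are counted. Of the summed RPKM of all histone genes in the set, H3 made up 20.4% in WT and 22.2% in G34R cells, while H1 (11.5% and 11.1%), H2A (14.5% and 13.8%), H2B (19.8% and 19.2%) and H4 (33.8% and 33.7%) made up slightly less in G34R cells.

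H4, the partner of H3 in the nucleosome core, was the type with the largest share in both libraries. The highest gene, Hist1h4h, was 864.82 RPKM in WT and 1038.77 in G34R cells (0.26, interval 0.24 to 0.29). Hist1h4d was 610.08 and 831.46 RPKM (0.45, interval 0.42 to 0.47), Hist1h4j 543.45 and 721.21 (0.41, interval 0.38 to 0.44) and Hist1h4m 429.48 and 504.31 (0.23, interval 0.20 to 0.26). These 4 abundant genes were all higher in G34R cells. The 13 genes together split 8 higher to 5 lower, from -0.53 to 0.97, with a median of 0.23 and sums of 4116.29 and 4946.38 RPKM. Among the 9 with at least 50% unique windows, 4 were higher and 5 lower and the median was -0.08, yet their sum was still higher (2562.43 and 2961.96 RPKM, 0.21), so the median and the sum of these 9 differ in sign. The extremes were both single genes outside Hist1 with nearly all windows unique. Hist2h4 was 27.99 and 54.65 RPKM (0.97, interval 0.91 to 1.02) and Hist4h4 133.22 and 92.13 (-0.53, interval -0.61 to -0.45). The Hist2h4 model is 1608 bases long and runs 1235 bases past the stem-loop, so its RPKM and unique share largely describe that downstream sequence.

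**Figure D3:**
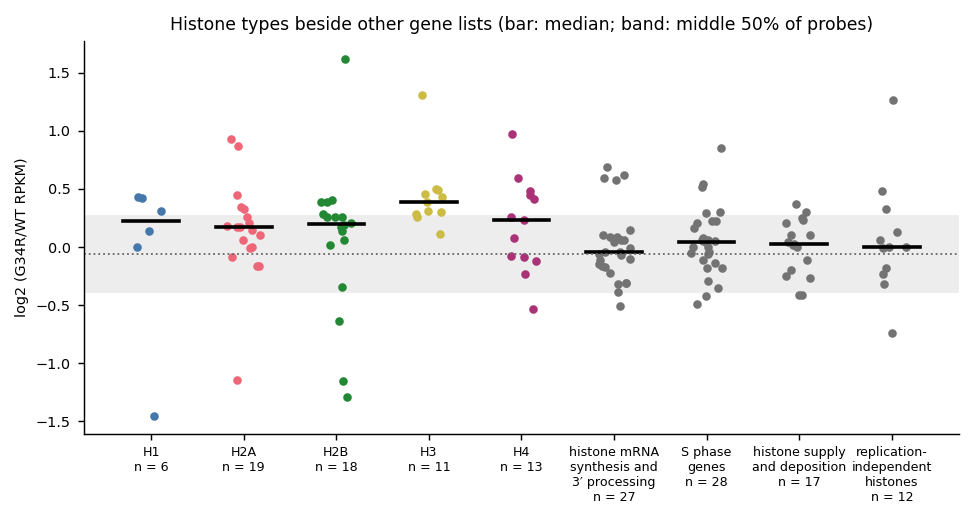
log2 (G34R/WT RPKM) of single genes (points) for the 5 histone types and 4 other gene lists, with the median of each (black bar) and the median (dotted line) and middle 50% (grey band) of the probes with a mean of at least 0.25 RPKM. The medians of the histone types run from 0.17 (H2A) to 0.39 (H3), and those of the other lists from -0.04 to 0.04.

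Past 2-fold the counts were small. Hist1h2bm and Hist2h3b were more than 2-fold higher, 2 of 67 genes where 5.08% of the 12883 probes were. Hist1h2bp, Hist1h1t, Hist1h2ba and Hist1h2aa were more than 2-fold lower, 4 of 67 where 8.22% of probes were. Neither share stood above this background, but the background depends on the filter. Over the 10293 probes with a mean of at least 1 RPKM, 365 were more than 2-fold higher and 524 more than 2-fold lower. The counts among the 67 genes are too small to set them apart from either background. Most of the 67 genes differed by less than 2-fold.

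Of the 4 genes more than 2-fold lower, 3 encode testis forms, known from developing sperm cells. Hist1h1t (linker histone H1t) was 6.41 RPKM in WT and 2.34 in G34R cells, from an estimated 512 and 154 reads, 2.74-fold lower (-1.45, interval -1.73 to -1.19). Hist1h2ba (TH2B) was 17.92 and 7.31 RPKM, from 613 and 206 reads, 2.45-fold lower (-1.29, interval -1.53 to -1.07). Hist1h2aa (TH2A) was 8.01 and 3.64 RPKM, from 275 and 103 reads, 2.2-fold lower (-1.14, interval -1.48 to -0.81). These were also among the lowest levels of the 67 genes, and at least 61.8% of the windows of each were unique (100% for Hist1h1t, 97.7% for Hist1h2aa). Of the 4 markers of spermatogenic cells, Prm1, Tnp1 and Acrv1 were listed at 0 in both libraries, and Sycp3 was 1.49 and 2.02 RPKM. Of the 3 oocyte markers, Zp3 was 2.69 and 0.71 RPKM, Gdf9 was 0.1 and 0.05, and H1foo was listed at 0 in both; the part of germline-like cells in the lower values was not tested. In bulk RNA, fewer cells with a transcript and less of it per cell cannot be told apart.

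Hist1h2ba and Hist1h2aa lie head to head at the edge of the Hist1 cluster, so the 2 lower genes have 1 intergenic stretch in common. It is 305 bases long between the models, and 300 of these are shown because both neighbours were lower together (mm9, plus strand, chr13:24026029-24026328). Capitals mark the motifs given above, on either strand: the TATA letters matched at 2 places, the CCAAT letters at 4 and the octamer at 1.
Between Hist1h2ba and Hist1h2aa: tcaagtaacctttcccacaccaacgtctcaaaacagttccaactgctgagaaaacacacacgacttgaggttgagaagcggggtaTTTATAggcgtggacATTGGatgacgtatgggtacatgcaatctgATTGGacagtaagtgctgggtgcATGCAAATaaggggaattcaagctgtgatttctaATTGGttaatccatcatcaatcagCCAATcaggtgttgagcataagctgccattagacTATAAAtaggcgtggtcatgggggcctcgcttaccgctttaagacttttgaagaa

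A TATAAA match stood toward each gene, with the octamer and the CCAAT matches between them. The same kind of divergent arrangement was found in 12 H2A and H2B pairs, with 167 to 305 bases between the models. H2B was the higher gene in 8 of the 12 in both libraries, and the median ratio of H2B to H2A RPKM was 2.5 in WT and 2.06 in G34R cells. The ratio was largest for Hist1h2bc over Hist1h2ac, at 228.19 and 15.67 RPKM in WT and 237.54 and 18.14 in G34R cells, where the H2A model is 2482 bases long and extends far beyond the histone coding sequence. At the other end, Hist2h2be was 0.3 and 0.36 RPKM beside Hist2h2ac at 152.59 and 209.12. RPKM thus differed widely between the sides of some shared promoter stretches, but RPKM divides by model length. Hist1h2bq and Hist1h2br have models of 2217 bases, against 519 for their partners Hist1h2ao and Hist1h2ap. The estimated WT reads of Hist1h2bq and Hist1h2ao were close, at 6237 and 7183. Between the libraries both genes were higher in 7 of the 12 pairs and both lower in 1, the testis pair. Of all 67 genes, 51 were higher. The 7 include Hist1h2ao with Hist1h2bq and Hist1h2ap with Hist1h2br, which are copies of each other with no unique window. In the pair of Hist1h2an (17.36 and 33.18 RPKM) and Hist1h2bp (134.25 and 60.4), H2A was higher and H2B lower in G34R cells, although only 14.2% of the windows of Hist1h2an were unique.

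**Figure D4:**
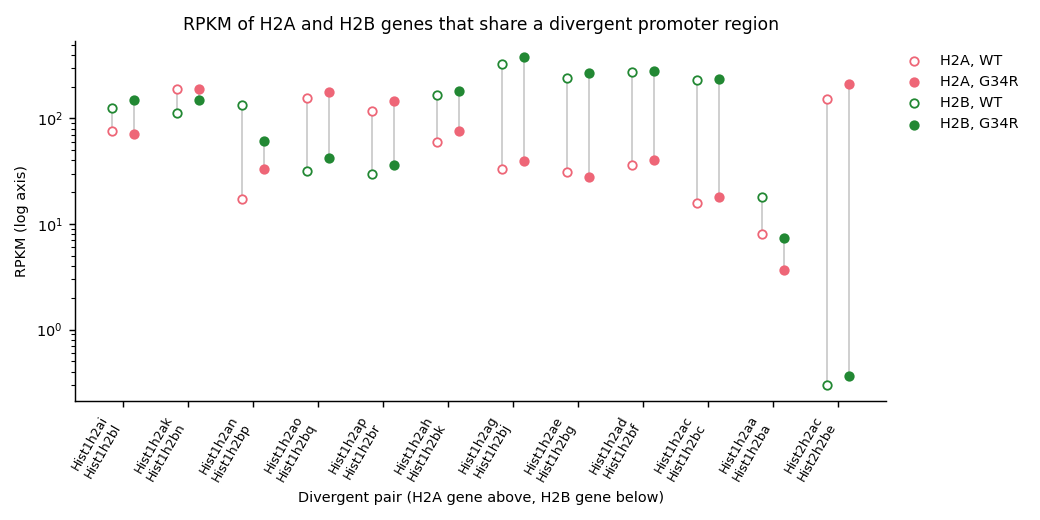
RPKM (log axis) of the H2A gene (red) and the H2B gene (green) of 12 divergent pairs, with WT as open and G34R as filled points and a grey line joining the genes of a pair in a library. Green lies above red in 8 pairs in both libraries, and the order within a pair was the same in WT and G34R cells in all 12.

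Along the chromosomes the pattern was shared by the large clusters. The Hist1 genes on chromosome 13 fell into groups more than 200 kb apart. In the first (mm9 21807632 to 22135545) 19 of 23 genes were higher and 3 lower, with a median log2 ratio of 0.26, but the 6 genes there with at least 50% unique windows had 2 higher and 3 lower and a median of -0.04. In the second (23622919 to 24026720) 23 of 31 were higher and 8 lower, with a median of 0.21, and the 22 genes with at least 50% unique windows had a median of 0.23. Hist1h2al stood alone at 51298057 to 51298434. The 9 Hist2 genes on chromosome 3 (96023839 to 96082924) summed to 555.14 RPKM in WT and 775.26 in G34R cells (0.48), with 7 higher and 2 lower and a median of 0.45 (0.26 for the 5 with at least 50% unique windows). The small clusters did not share this. Hist3h2ba on chromosome 11 was 20.97 and 13.47 RPKM (-0.64) and its neighbour Hist3h2a 19.92 and 20.73 (0.06). Hist4h4, alone on chromosome 6 (136752589 to 136752900), was the lower H4 gene given above.

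**Figure D5:**
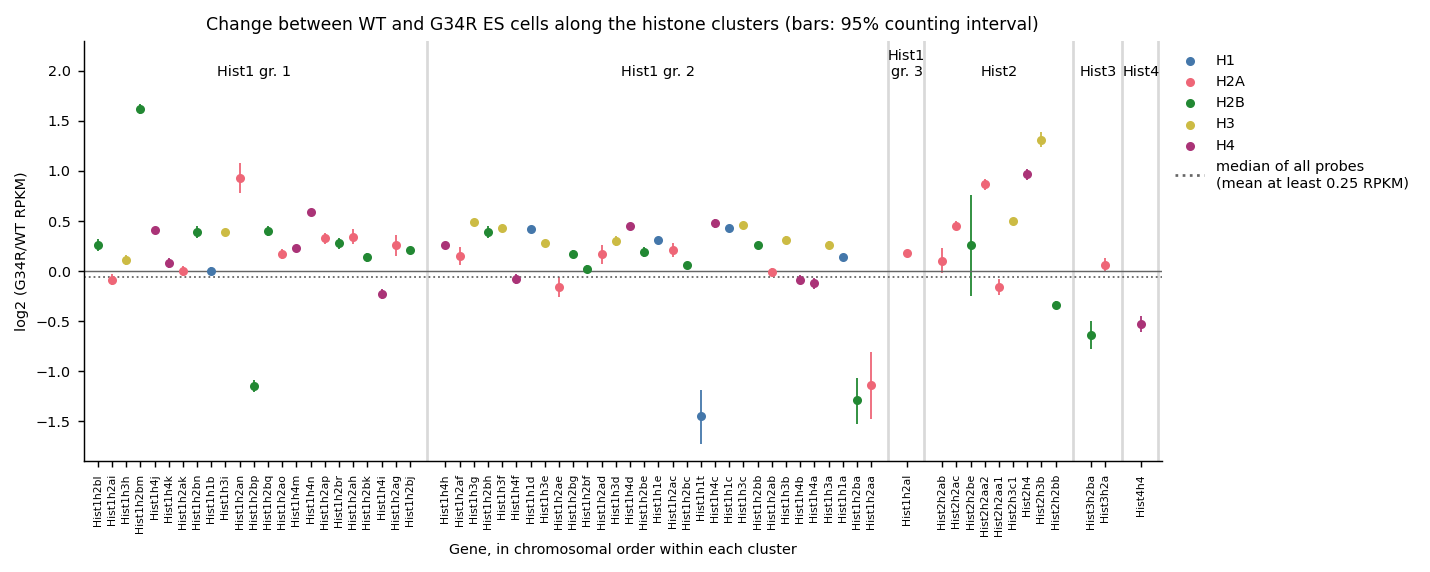
log2 (G34R/WT RPKM) of the 67 genes in chromosomal order within each cluster, coloured by type, with 95% counting intervals as bars and the median of all probes with a mean of at least 0.25 RPKM as a dotted line. Most points of both large Hist1 groups lie between 0 and 0.5, the testis forms lie below -1 in group 2, and Hist1h2bm (1.62) and Hist1h2bp (-1.15) stand apart in group 1.

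Genes that make and handle these mRNAs and proteins did not show the same difference as lists, though single genes differed. In a list of 27 factors for histone gene transcription and 3′ processing, 11 were higher and 16 lower, with a median log2 ratio of -0.04 and none past 2-fold. Slbp, the stem-loop binding protein, was 10.95 and 9.9 RPKM, and Npat 7.69 and 7.65. Lsm10 (log2 ratio 0.62), Sympk (0.59) and Cpsf3 (0.58) were higher in G34R cells, while Ncbp2 (-0.51) and Cstf3 (-0.39) were lower. Upf1, a helicase that takes part in histone mRNA decay, was 20.9 and 33.61 RPKM (0.69), the RNA helicase gene Dhx9 45.55 and 48.71 (0.10) and Srrt, which encodes the cap-complex partner ARS2, 33.1 and 28.47 (-0.22). Among 28 S phase genes, 16 were higher, 11 lower and 1 equal, with a median of 0.04 and none past 2-fold. Their most abundant members, subunits of the MCM replicative helicase, were Mcm5 at 103.95 and 109.98 RPKM, Mcm2 at 81.2 and 78.61 and Mcm3 at 78.61 and 91.83. The S phase genes Rrm2 (0.85), Gins2 (0.54) and Cdt1 (0.52) were higher in G34R cells, while Gins1 (-0.49) and Prim1 (-0.42) were lower. Of 17 chaperones and other factors for histone supply and deposition, 10 were higher and 7 lower (median 0.03, none past 2-fold), with the histone chaperone genes Npm1 at 344.06 and 259.34 RPKM and Set at 87.13 and 80.9, and the FACT subunit gene Supt16h at 66.39 and 55.84.

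Replication-independent histone genes lacked the difference as a list. Of 15 listed, 12 were measured, and 5 were higher, 5 lower and 2 listed at 0 in both libraries, with a median of 0.00. H2afy, which encodes macroH2A1, was 6.02 and 14.41 RPKM (1.26) and the 1 gene of this list past 2-fold. H2afx, the gene of the DNA damage-linked variant H2A.X, was 196.26 and 205.11 RPKM and H2afz, the gene of H2A.Z, 74.08 and 81.29. All 4 lists were read only by these counts and medians beside the 44.8% of probes higher and the median of -0.06 over all probes.

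Among markers of cell identity the 2 libraries differed in single genes. The 9 ES cell markers had a median log2 ratio of -0.04, close to that of all probes, with 2 higher and 7 lower in G34R cells. The most abundant, Dppa5a (707.95 and 647.81 RPKM), Tdgf1 (261.25 and 255.61) and Pou5f1 (194.34 and 189.46), differed little. Nanog (127.07 and 52.24 RPKM) and Zfp42 (180.3 and 16.4) were the ES cell markers more than 2-fold lower, while Klf4 was higher at 25.14 and 43.71. The summed RPKM of this list was 1682.2 in WT and 1377.02 in G34R cells. Of 3 neural markers measured, Tubb3 was 35.58 and 8.36 RPKM, Nes 1.36 and 1.56 and Pax6 0.13 and 0.03, so their sum of 37.07 and 9.95 was almost entirely Tubb3. The 5 primitive endoderm markers were all higher but low, with sums of 1.78 and 4.11 RPKM. The 3 mesoderm markers summed to 0.52 and 2.09 RPKM, mostly Eomes at 0.43 and 1.88. No fibroblast marker was above 1.18 RPKM. The part of any such difference, or of the share of cells in S phase, in the histone values was not tested.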

How the data were processed

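RNA-seq of 1 WT and 1 G34R library was analysed. Library preparation started from 500 ng total RNA and used 12 amplification cycles. The authors aligned the stranded 50 bp reads to mm9 with STAR 2.4.2a, imported primary alignments into Seqmonk and deposited RPKM per gene, by strand, with isoforms merged and transcript length corrected. Values have 2 decimals, and read counts were not used here.

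Ratios are log2 (G34R/WT RPKM), with values under 0.01 set to 0.01. A gene counted past 2-fold needed a mean of at least 0.25 RPKM. Depth was estimated from 32 (WT) and 44 (G34R) single-exon probes under 800 bases, of which 100% fell within 0.2 of a whole read. Reads per gene are estimates from RPKM, model length (GENCODE vM1, 312 to 3821 bases, median 530) and this depth. Intervals cover counting error only. The scripts were tested on simulated data.

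The genes named are the 4 with the highest mean RPKM in each histone type, every histone gene past 2-fold with a mean of at least 1 RPKM, and in the other lists the 3 highest and any past 2-fold with a mean of at least 1 RPKM. Marker lists are given by their sums with the genes that carry them. Other named genes (among them Hist2h4, Hist4h4, Hist3h2ba, Hist3h2a, Hist1h2an, Hist2h2be, Hist2h3c1, the identical and divergent pairs, Slbp, Npat, Klf4 and other single markers) were chosen after their values were seen. The gene set and the lists were chosen with earlier results of these data known. RefSeq promoters are of build GRCm38.p6, and all 67 genes matched a RefSeq symbol or synonym. No protein sequence was used here. Python 3.11.15, NumPy 2.4.6, pandas 2.3.3, SciPy 1.17.1, numba 0.67.0 and matplotlib 3.10.9 were used.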

Additional observations from a re-analysis of the deposited data

How the results depend on the processing

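No paired analysis was possible because each line has 1 library, and leaving out replicates could not be run for the same reason. Of 269 alternative values of the main results 242 kept their value. This meant within 0.1 on the log2 scale for medians (a tolerance chosen after the values were seen). For sums it meant within the counting interval, and for counts within 1.5 times. None of the called genes reversed. Part of the 242 could hardly have changed, since all 67 genes passed the low-value filter and lay above each floor tried. A changed floor, a very small added value or a looser filter therefore left the histone values nearly as they were. Those kept values do not show that the histone results are robust. With both libraries scaled to the same RPKM sum, the summed log2 ratio was 0.314 for all 67 genes and 0.264, 0.241, 0.265, 0.44 and 0.311 for H1, H2A, H2B, H3 and H4. At 1.5-fold 6 genes were past the threshold upward, and Hist3h2ba (1.56-fold lower) joined the 4 genes past it downward. At 3-fold 1 gene was past it upward and 0 downward. The shares of all probes past 1.5-fold and 3-fold were not taken, so these counts are not a result about the histone genes. The following settings were chosen after seeing the data. With at least 50% unique windows 1 gene was past 2-fold upward, the sums had log2 ratios of 0.237 (all), 0.132 (H2A), 0.269 (H2B), 0.38 (H3) and 0.209 (H4), and the medians were 0.029 (H2A), -0.079 (H4), -0.043 (the first Hist1 group) and 0.263 (Hist2), so that the medians of H4 and of the first Hist1 group changed sign. With under 50% unique windows 1 gene was past 2-fold upward and 0 downward, the sums had ratios of 0.301 (all), 0.221 (H2A), 0.181 (H2B) and 0.353 (H4), and the Hist2 median was 0.682. Without the testis forms 1 gene was past 2-fold downward, since 3 of the 4 are those forms. Adding 1 RPKM to each value gave Hist1h2aa a ratio of -0.957, no longer past 2-fold. With 1 library per line neither clone nor culture variation can be estimated, shared reads limit single copies, and the depth is an estimate from RPKM.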
